A study of Mus musculus with 15 samples.

Results

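The 10 genes described here encode feedback regulators of ERK signalling: the phosphatases Dusp4, Dusp5 and Dusp6, the Sprouty genes Spry1, Spry2 and Spry4, the Spred genes Spred1 and Spred2, and the transcription factors Etv4 and Etv5. They were taken by name from 19938 measured genes, each through the probe set that named only that gene and had the highest mean over 15 arrays. The arrays measured RNA of cultured fibroblast colony-forming cells (cCFU-F) from hearts of 12-week-old C57BL/6 mice labelled male, sorted as SCA1+, PDGFRα+ and CD31-. Each of the 5 groups held 3 arrays. Small colonies grown with PDGF-AB at 50 ng/ml gave a group at passage 15 and one at passage 5, small colonies without it gave one at passage 5, and large colonies without it gave one at each of these passages. PDGF-AB is a dimeric platelet-derived growth factor that binds the receptors PDGFRα and PDGFRβ. Untreated small colonies at passage 15 were not analysed here, so the change with passage in small colonies is known only with PDGF-AB present, and colony type and PDGF-AB cannot be told apart wherever treated small colonies are set against large ones. All groups are primary cells in culture, and whether replicate arrays stand for different cultures or mice is not stated, so each p-value rests on a spread between arrays that may be no more than technical.

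Growth factors such as PDGF activate receptor tyrosine kinases, which pass a signal through RAS, RAF and MEK to the kinase ERK. Active ERK switches on genes whose products act back on the pathway, and the level of such genes is widely read as a record of recent ERK activity. DUSP4 and DUSP5 are phosphatases of the nucleus and DUSP6 is one of the cytoplasm, and all of them remove phosphate from ERK. Sprouty proteins act between the receptor and RAF, SPRED proteins bring the RAS inhibitor neurofibromin to the membrane, and ETV4 and ETV5 are ETS factors induced through FGF receptors and ERK in many embryonic tissues.

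Values are log2 intensities as deposited, with medians per array of 5.59 to 5.72. Across genes, which are not independent replicates, Pearson's r was 0.997 to 0.998 within groups and 0.958 to 0.991 when arrays came from different groups. Changes are log2 differences with the SE of a limma fit over all arrays, and a gene was called at an adjusted p (Benjamini-Hochberg over 19938 genes) under 0.05. Of the fibroblast and sort markers 6 or 7 of 7 measured lay above the median gene in each group, and Ly6a, which encodes SCA1, was not analysed here. Pdgfra averaged 6.28 to 6.66, not far above that median (6.02), except in large colonies at passage 15 (8.84). The fibroblast marker Thy1 averaged 5.11 to 5.49 in the small-colony groups and 10.33 to 10.63 in the large-colony groups. None of the 7 endothelial markers lay above the median gene in any group, Pecam1 (CD31) included, and 0 to 3 of 7 leukocyte markers did so. Among these Ptprc (CD45) averaged 3.86 to 4.12, Lyz2 stood at 8.46 to 9.14 in all groups but treated small colonies at passage 15 (5.35), and Cd14 reached 7.16 in untreated small colonies. Of 7 pericyte and smooth muscle markers 3 to 5 lay above the median gene. Acta2 (smooth muscle actin) had group means of 12.3 to 12.7, and Myh11 had 5.28 to 6.10. Of 7 cardiomyocyte markers 1 lay above it in each group, Tnnt2 (cardiac troponin T) at 7.32 to 10.4, while Myh6 lay between 4.91 and 5.09. Against the label of male cells, Xist, the RNA of the inactive X chromosome, lay between 8.93 and 10.9 in all 15 arrays, and 4 Y-linked genes (Eif2s3y, Kdm5d, Uty and Usp9y) between 2.24 and 3.42.

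Promoter sequence of 7 of the 10 genes was taken by symbol from a RefSeq table of build GRCm38.p6, with 2 start sites for Etv5. Promoters of Dusp4, Spry4 and Etv4 were not searched. The 250 bases before the start were searched on both strands for the ETS motif CCGGAAG, the CRE core TGACG, the AP-1 motif TGANTCA, the SP1 motif GGGCGG and the serum response element. The last is the site at which SRF binds in immediate early genes such as Fos. These genes follow, with every match in capitals, because Dusp5 was the gene of the set that rose with PDGF-AB, Dusp6 one that moved opposite ways with passage in the 2 colony types, and Spry1 one of the 2 that fell furthest. Dusp5 lies at chr19:53528895-53529144 on the plus strand, Dusp6 at chr10:99262981-99263230 on the plus strand, and Spry1 at chr3:37639697-37639946 on the plus strand.
Dusp5: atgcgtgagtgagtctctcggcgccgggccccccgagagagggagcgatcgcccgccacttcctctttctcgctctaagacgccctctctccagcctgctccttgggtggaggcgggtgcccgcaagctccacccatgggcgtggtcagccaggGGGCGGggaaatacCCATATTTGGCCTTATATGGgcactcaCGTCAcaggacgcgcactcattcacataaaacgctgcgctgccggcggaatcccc
Dusp6: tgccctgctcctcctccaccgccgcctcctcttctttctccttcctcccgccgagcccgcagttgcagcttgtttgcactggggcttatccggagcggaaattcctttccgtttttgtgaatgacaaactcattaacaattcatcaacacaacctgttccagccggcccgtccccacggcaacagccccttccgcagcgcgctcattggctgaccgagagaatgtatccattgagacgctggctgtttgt
Spry1: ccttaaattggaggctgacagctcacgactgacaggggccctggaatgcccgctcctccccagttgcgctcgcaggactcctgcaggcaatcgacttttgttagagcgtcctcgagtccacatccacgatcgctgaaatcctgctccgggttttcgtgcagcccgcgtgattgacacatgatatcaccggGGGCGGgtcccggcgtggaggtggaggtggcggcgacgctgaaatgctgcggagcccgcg
The Dusp5 window held 2 serum response elements side by side, beginning 82 and 72 bases before the start, with a CRE core 55 bases and an SP1 motif 96 bases before it. A serum response element occurred in 1.47% of 32851 mouse promoters of the same length, 2 or more in 6 of them (0.0183%), and in no other of the 8 windows searched. Promoters with 2 or more matches were counted for this motif alone, the one that Dusp5 holds side by side, so that share is no test. Spry1 held 1 SP1 motif, which 32.7% of all promoters contain, and Dusp6 held none of the 5 motifs. The ETS and AP-1 motifs, found in 6.91% and 6.75% of all promoters, were in none of the 8 windows, and the CRE core, found in 17.8%, was in those of Dusp5 and Spred2. A match of letters is a description of the sequence and was not measured as binding.

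**Figure D1:**
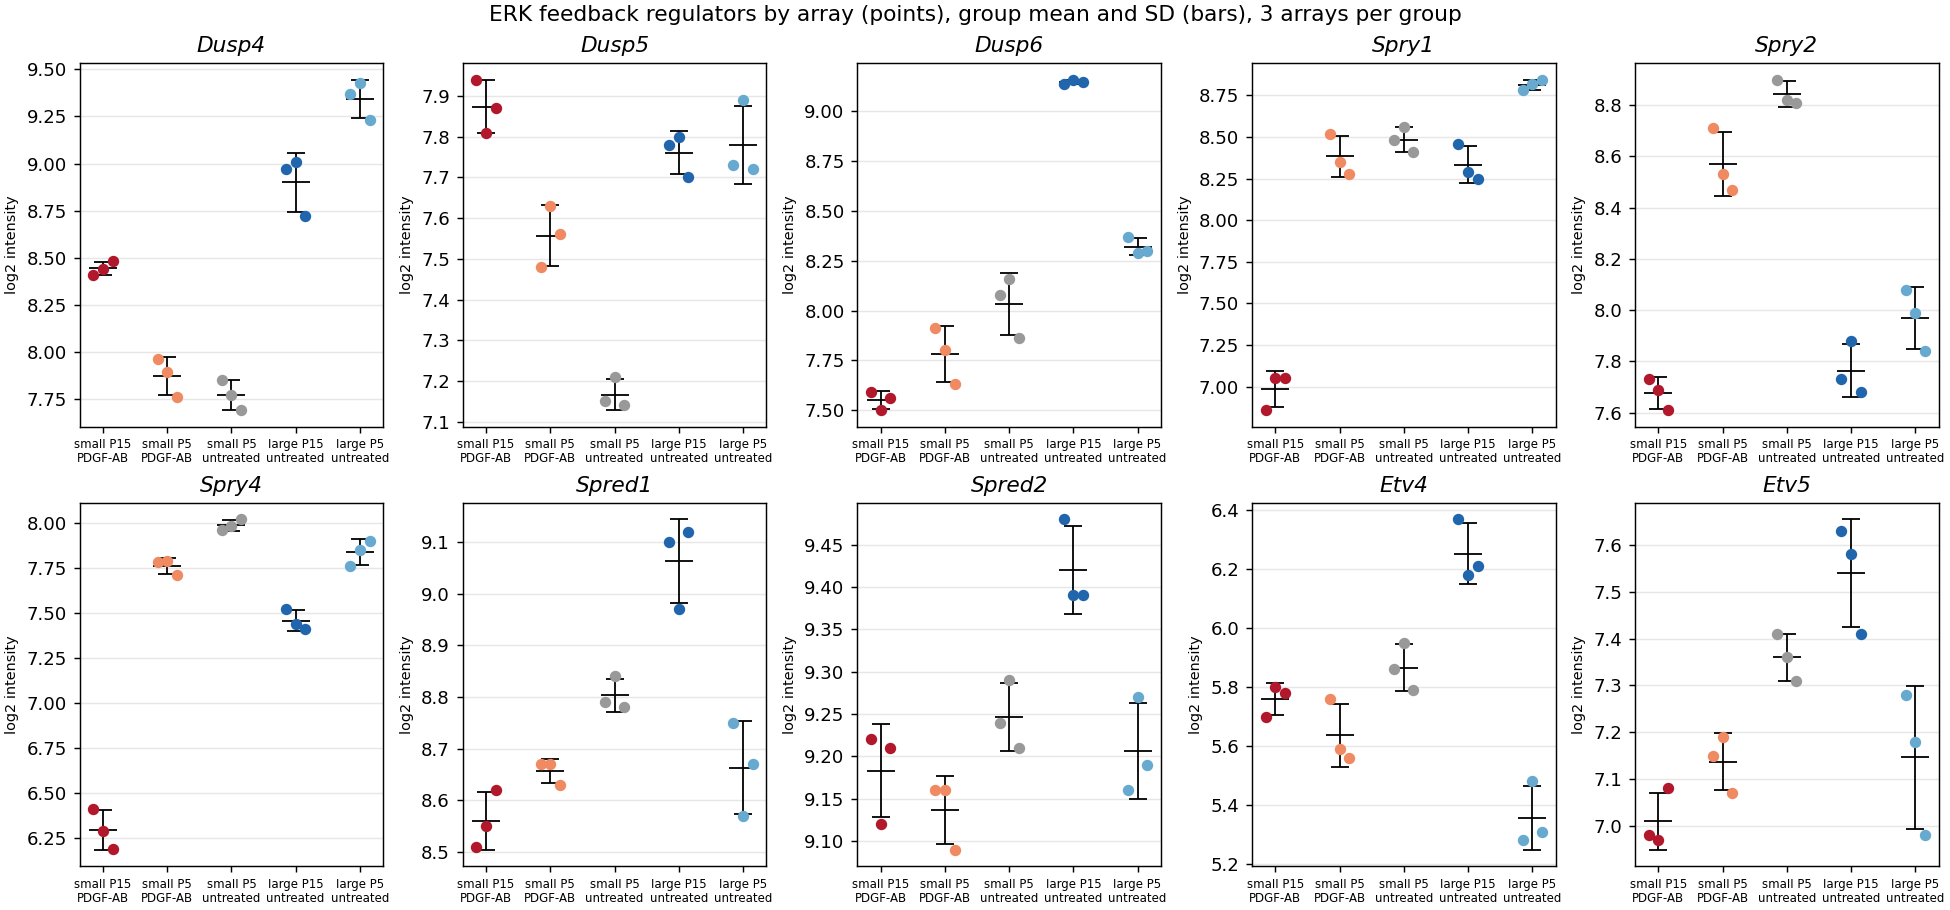
Log2 intensity of each ERK feedback gene in all 15 arrays, by group, with a y axis of its own in each panel. Points are arrays, and bars are the group mean and SD of 3 arrays. Spry1 and Spry4 stand lowest in treated small colonies at passage 15, with no array above 7.05 and 6.41, and Dusp6 stands highest in large colonies at passage 15.

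The question put to small colonies at passage 5 was what PDGF-AB changes. Of the ERK feedback genes Dusp5 rose, and Dusp6, Spry2, Spry4, Etv4 and Etv5 fell by small amounts. Dusp5 had 7.48, 7.63 and 7.56 in treated small colonies, against 7.15, 7.21 and 7.14 in untreated ones. Every treated array lay above every untreated one, a rise of 0.39 ± 0.064 (SE) or 1.31-fold with adjusted p = 0.000252. In such bulk samples a change in the share of cells that express a gene and one in its RNA per cell cannot be told apart. Dusp5 kept this call under every alternative tried, with adjusted p between 4.1e-05 and 0.00234.

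The falls were all under 1.21-fold. Spry2, which encodes a Sprouty found in most tissues, had 8.71, 8.53 and 8.47 with PDGF-AB, against 8.90, 8.82 and 8.81 without it (-0.27 ± 0.077, adjusted p = 0.0142). Spry4 had 7.78, 7.79 and 7.71 in treated colonies, against 7.96, 7.98 and 8.02 in untreated ones (-0.23 ± 0.064, adjusted p = 0.0136). In neither Sprouty gene did the arrays of the groups overlap. Dusp6 had 7.91, 7.80 and 7.63 with PDGF-AB, against 8.08, 8.16 and 7.86 without it, and its highest treated array lay above its lowest untreated one (-0.25 ± 0.078, adjusted p = 0.0222). Etv4 (-0.23, adjusted p = 0.0298) and Etv5 (-0.22, adjusted p = 0.0393) were also called lower, but the second probe set of Etv5 was not (-0.22, adjusted p = 0.0964 over all probe sets). Dusp4 (0.10, adjusted p = 0.388), Spry1 (-0.10, adjusted p = 0.358), Spred1 (-0.15, adjusted p = 0.0904) and Spred2 (-0.11, adjusted p = 0.165) did not pass, and the 95% interval of the Spry1 difference ran from -0.26 to 0.06.

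Genes called with PDGF-AB numbered 6 of 10, 1 higher and 5 lower, beside 28.9% of all genes, 10.7% higher and 18.2% lower. None changed 2-fold, as 1.39% of all genes did. The arrays of the groups did not overlap for 7 of the 10, beside 43.0% of all genes. The median difference of the set was -0.18, against 0.02 over all genes. The calls on the falls rested on single arrays and on the normalization. Without untreated replicate 1 or 2 the genes called were 2 and 3, and without treated replicate 2 or 3 they were 3 and 1. With cyclic loess between arrays 2 were called, Dusp5 and Etv4. Proliferation markers moved in the same comparison, with 6 of 6 lower and a median of -1.44. Mki67, the proliferation antigen, had 5.68, 5.66 and 5.47 in treated colonies, against an identical 6.71 in all 3 untreated arrays. The SD of Mki67 was thus 0 in untreated small colonies, against 0.036 to 0.17 in the other groups. These equal values are unexplained, so the size of the Mki67 difference is uncertain. Of 7 fibroblast and sort markers 5 were called lower with PDGF-AB. Of 5 mesothelial and epicardial markers 2 were called lower and none higher, with Upk3b at 7.01 in treated and 8.60 in untreated colonies. Of 7 leukocyte markers 2 were called lower and none higher, with Cd14 at 5.92 and 7.16. Of 7 cardiomyocyte markers 2 were called higher and none lower, with Tnnt2 at 10.38 and 9.61. The part of these markers in these values was not tested.

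Other genes of the pathway moved in both directions with PDGF-AB. Over all genes 28.9% were called in that comparison, 10.7% higher and 18.2% lower. Of 18 measured immediate early and other ERK-induced genes 12 were higher and 3 lower, with a median of 0.30, including the transcription factor genes Egr2 (8.01 in treated, 6.84 in untreated colonies), Fos (8.94 and 7.99), Egr1 (9.93 and 9.38) and Srf (8.66 and 8.27). Of 10 other dual-specificity phosphatases 3 were higher and 2 lower, with Dusp1, an immediate early phosphatase of p38, JNK and ERK, higher by 0.59 and Dusp16 lower by 0.34 (a change of -0.34, adjusted p = 0.000222). Of 17 other inhibitors of receptors, RAS or ERK 4 were higher and 4 lower. Among them the remaining Sprouty and Spred genes differed in direction, with Spry3 at 5.81 in treated and 6.75 in untreated colonies (-0.94) and Spred3 at 7.61 and 7.11 (0.50).

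Further up the pathway 2 of 17 receptors and adaptors were higher and 6 lower. Pdgfra, the receptor used in the sort, had 6.23, 6.39 and 6.20 with PDGF-AB, against 6.63, 6.78 and 6.57 without it (-0.39 ± 0.084, adjusted p = 0.00218), and Pdgfrb fell by 0.19 on the log2 scale (adjusted p = 0.0221). The FGF receptor gene Fgfr2 was higher (0.63) and the HGF receptor gene Met lower (-0.48). In the RAS to ERK cascade 3 of 10 measured genes were called, each of them higher (Rras 0.54, Araf 0.26 and Braf 0.19). That share was near the 28.9% called over all genes. Of 16 ligands 3 were higher and 3 lower, with Igf2 at 7.72 in treated and 5.59 in untreated colonies and Fgf18 at 8.49 and 9.45.

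**Figure D2:**
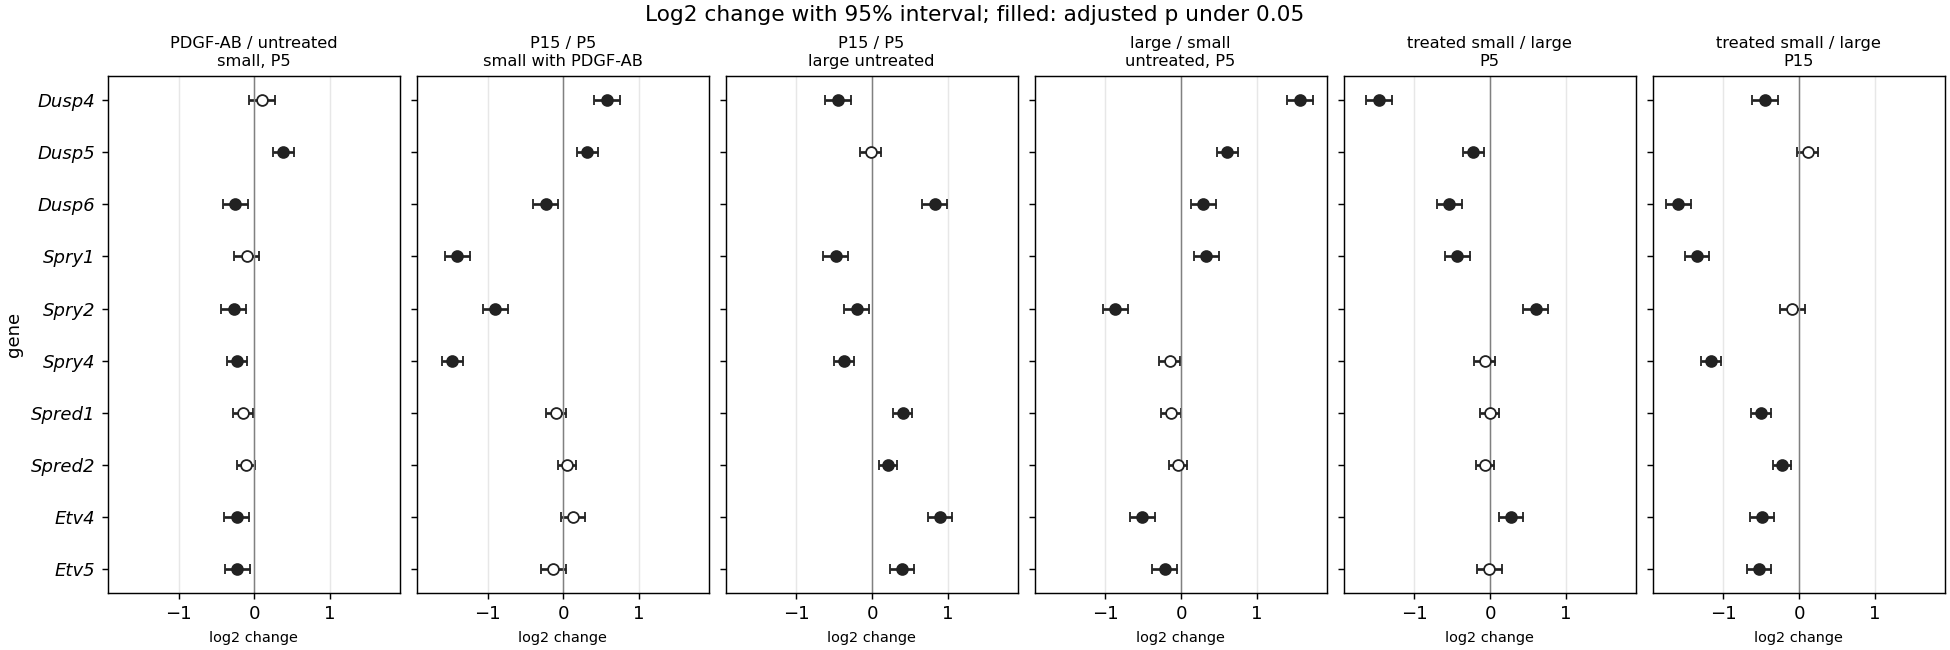
Log2 change of each gene in the 6 comparisons of a pair of groups, first-named over second-named group, with the 95% interval of the limma fit. Filled points had adjusted p under 0.05. With PDGF-AB at passage 5 every change lies within 0.4 of 0, while Spry1 and Spry4 lie below -1.3 with passage in treated small colonies.

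The comparison of passage 15 with passage 5 in treated small colonies asked what changes with time in culture under PDGF-AB. Spry1, Spry2 and Spry4 fell, and the nuclear phosphatases Dusp4 and Dusp5 rose. Spry4 had 6.41, 6.29 and 6.19 at passage 15, against 7.78, 7.79 and 7.71 at passage 5, a fall of 2.76-fold (-1.46 ± 0.064, adjusted p = 8.83e-12). Spry1 had 6.86, 7.05 and 7.05 at passage 15, against 8.52, 8.35 and 8.28 at passage 5, a fall of 2.63-fold (-1.40 ± 0.077, adjusted p = 1.99e-10). In both genes the late arrays lay more than 1 log2 unit below every early one. Spry2 had 7.73, 7.69 and 7.61 at passage 15, against 8.71, 8.53 and 8.47 at passage 5 (-0.90 ± 0.077, adjusted p = 5.17e-08).

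Dusp4 moved the other way, with 8.41, 8.44 and 8.48 at passage 15, against 7.96, 7.89 and 7.76 at passage 5 (0.57 ± 0.081, adjusted p = 1.87e-05). Dusp5 had 7.94, 7.81 and 7.87 at passage 15, against 7.48, 7.63 and 7.56 at passage 5 (0.32 ± 0.064, adjusted p = 0.000614). Late and early arrays did not overlap in either phosphatase gene. Dusp6 had 7.59, 7.50 and 7.56 late, against 7.91, 7.80 and 7.63 early (-0.23 ± 0.078, adjusted p = 0.0247), a call lost without passage 5 replicate 1 (adjusted p = 0.126) or 2 (0.0666) and without passage 15 replicate 2 (0.0811) or 3 (0.0519). Spred1 (-0.10, adjusted p = 0.221), Spred2 (0.05, adjusted p = 0.498), Etv4 (0.13, adjusted p = 0.187) and Etv5 (-0.13, adjusted p = 0.194) did not pass. For Spred2 a second probe set rose by 0.30 (adjusted p = 0.00524 over all probe sets), and the mean of both had adjusted p = 0.0283.

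Thus 6 of 10 genes were called, 2 higher and 4 lower, beside 46.0% of all genes, 24.6% higher and 21.4% lower. Of the set 2 changed at least 2-fold, beside 5.26% of all genes, and 7 had groups that did not overlap, beside 54.9%. The median change of the set was -0.11 and that of all genes 0.05. All 6 proliferation markers rose in the same comparison (median 4.13), with Mki67 at 9.04, 8.77 and 9.09 at passage 15, against 5.68, 5.66 and 5.47 at passage 5. Of 7 leukocyte markers 3 were called higher and 2 lower. The myeloid gene Lyz2 averaged 5.35 at passage 15 and 8.93 at passage 5. Of 7 pericyte and smooth muscle markers 2 were called higher and 2 lower. Cspg4 averaged 9.03 at passage 15 and 7.52 at passage 5, and Acta2 12.4 and 12.7. The part of these markers in the result was not tested.

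Immediate early and other ERK-induced genes fell in 12 and rose in 3 of 18 cases with passage in treated small colonies (median -0.39). Over all genes 46.0% were called in that comparison, 24.6% higher and 21.4% lower. Fos averaged 6.31 at passage 15 and 8.94 at passage 5, Fosb 6.44 and 8.32, and Junb 6.92 and 8.03. Other phosphatases moved both ways, with Dusp1 lower (-1.61) and Dusp14 (1.33) and Dusp10 (1.17) higher. Of 17 other inhibitors 1 rose and 6 fell, among them Socs3 (-1.14), a cytokine signalling suppressor, the ubiquitin ligase gene Cblb (-0.79) and Spred3 (-0.78). Of 16 growth factor ligands 1 rose and 9 fell, such as Igf2 (-2.24), Igf1 (-1.24) and Fgf2 (-1.13). Receptors fell in 8 and rose in 4 of 17 cases, with Egfr at 8.34 late and 9.43 early, Pdgfrb at 11.07 and 11.58, and Met at 8.23 and 7.31. In the cascade 5 of 10 genes fell, Braf (8.38 late, 9.38 early) and Araf (-0.65) among them, and Nras rose (0.59).

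In untreated large colonies the same comparison of passages gave another picture. Dusp6, Etv4, Etv5, Spred1 and Spred2 rose, and Dusp4, Spry1, Spry2 and Spry4 fell. Dusp6 had 9.14, 9.16 and 9.15 at passage 15, against 8.37, 8.29 and 8.30 at passage 5, a rise of 1.77-fold (0.83 ± 0.078, adjusted p = 2.33e-07). Etv4 had 6.37, 6.18 and 6.21 at passage 15, against 5.28, 5.48 and 5.31 at passage 5, a rise of 1.86-fold (0.90 ± 0.076, adjusted p = 6.4e-08). In both genes every late array exceeded every early one. Etv4 was the dimmest of the 10, with a mean over all arrays at the 46.6th percentile of genes, so its folds depend on background more than those of the others.

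Etv5 had 7.63, 7.58 and 7.41 at passage 15, against 7.28, 7.18 and 6.98 at passage 5 (0.39 ± 0.077, adjusted p = 0.00059). A second probe set that names only Etv5 rose by 0.67 ± 0.090 (adjusted p = 2.4e-05 over all probe sets), so both rose and differed in size. Spred1 had 9.10, 8.97 and 9.12 late, against 8.75, 8.57 and 8.67 early (0.40 ± 0.061, adjusted p = 5.51e-05). Spred2 rose by 0.21 (adjusted p = 0.00615), and by 0.44 in its second probe set.

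Among the falls Dusp4 had 8.97, 9.01 and 8.72 at passage 15, against 9.37, 9.43 and 9.23 at passage 5 (-0.45 ± 0.081, adjusted p = 0.000307). Spry1 had 8.46, 8.29 and 8.25 late, against 8.78, 8.82 and 8.84 early (-0.48 ± 0.077, adjusted p = 8.75e-05). Spry4 had 7.52, 7.44 and 7.41 late, against 7.76, 7.85 and 7.90 early (-0.38 ± 0.064, adjusted p = 0.000152). Late and early arrays were apart in all 3 of these genes. Spry2 fell by 0.21 on the log2 scale with overlapping arrays (adjusted p = 0.0477). That call was lost without passage 5 replicate 1 (adjusted p = 0.177) or 2 (0.109), without passage 15 replicate 1 (0.129) or 3 (0.167), with all probe sets (0.0585), with array weights (0.103) and when only the arrays compared were fitted (0.0941). Dusp5 stood at 7.76 ± 0.058 at passage 15 and 7.78 ± 0.10 at passage 5 (SD, n = 3, adjusted p = 0.857).

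Called genes numbered 9 of 10, 5 higher and 4 lower, beside 36.1% of all genes, 17.4% higher and 18.7% lower, and 8 of 10 had groups that did not overlap, beside 44.5%. None reached 2-fold, which 3.77% of all genes did. The median absolute change was 0.40 in the set and 0.14 over all genes. Pdgfra had 8.76, 9.02 and 8.76 at passage 15, against 6.62, 6.45 and 6.67 at passage 5 (2.26 ± 0.084, adjusted p = 1.68e-12), and Pdgfrb 11.54, 11.61 and 11.54, against 11.84, 11.79 and 11.85 (-0.26). All 6 proliferation markers rose (median 3.59). Of 7 pericyte and smooth muscle markers 3 were called higher and 2 lower, with Rgs5 at 6.73 late and 8.42 early and Kcnj8 at 6.61 and 5.08. Of 5 mesothelial and epicardial markers 1 was called higher and 2 lower, with Upk3b at 7.04 late and 8.51 early and Upk1b at 4.91 and 6.85. The part of these markers in the values was not tested.

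With passage in large colonies 12 of 18 ERK-induced genes were called higher and 1 lower (median 0.37), such as Phlda1 (10.45 late, 9.12 early), Myc (9.43 and 8.42), Egr2 (8.04 and 7.08) and Hmga2 (9.42 and 8.62). Over all genes 36.1% were called in that comparison, 17.4% higher and 18.7% lower. Of 17 other inhibitors 4 rose and 1 fell. The EGF receptor inhibitor Errfi1 rose by 1.16 and Socs3 by 1.27, while Rasal2, a RAS GTPase-activating protein, fell (-0.52). Spry3, the Sprouty gene outside the set, rose (0.33, adjusted p = 0.00366), opposite to Spry1, Spry2 and Spry4. Ligands rose in 4 and fell in 6 of 16 cases, with the MET ligand gene Hgf at 8.64 late and 5.77 early, Igf2 at 11.07 and 9.05, Pdgfd at 5.51 and 7.59, and Fgf18 at 8.19 and 9.68. Of the other phosphatases 3 rose and 4 fell, led by Dusp14 (0.98) and Dusp1 (-0.59).

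**Figure D3:**
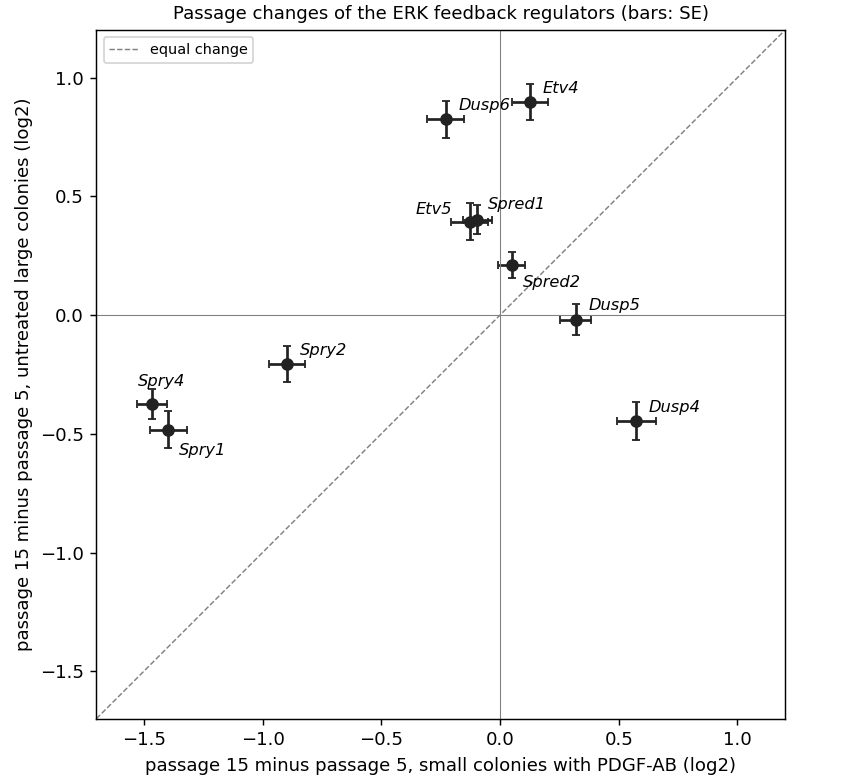
Change from passage 5 to passage 15 in PDGF-AB-treated small colonies (x axis) and in untreated large colonies (y axis), both as log2 differences with SE bars. The dashed line marks equal change. Spry1, Spry2 and Spry4 lie at lower left, Dusp6 and Dusp4 in opposite corners, and Dusp5 near 0 on the y axis.

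The passage changes of the colony lines share no arrays, and their difference (treated small minus large) was tested in the same fit. It passed for 9 of 10 genes, 2 higher and 7 lower, beside 34.4% of all genes, 18.6% higher and 15.9% lower. Spry1, Spry2 and Spry4 fell in both lines and further in treated small colonies, with differences of -1.09 ± 0.090 for Spry4 (adjusted p = 8.86e-08), -0.92 ± 0.11 for Spry1 (adjusted p = 6.3e-06) and -0.69 ± 0.11 for Spry2 (adjusted p = 0.000115). Dusp6 fell in treated small and rose in large colonies (-1.05 ± 0.11, adjusted p = 1.42e-06), and Dusp4 rose in treated small and fell in large colonies (1.02 ± 0.12, adjusted p = 3.44e-06). Etv4 (-0.77), Etv5 (-0.52) and Spred1 (-0.50) were called in large colonies, and their change in treated small colonies was lower by these amounts. Dusp5 had a difference of 0.34 (adjusted p = 0.00921), and Spred2 did not pass (-0.16, adjusted p = 0.124). The 9 calls held under all alternatives that could test them, including each array left out in turn. Among the 18 ERK-induced genes the difference was called in 14, each of them lower (median -0.89), with Fos at -2.63, Phlda1 at -2.52 and Egr2 at -2.25. PDGF-AB and colony type cannot be told apart as sources of these differences.

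Large and small untreated colonies at passage 5 differed, among the 10 genes, most in Dusp4. It had 9.37, 9.43 and 9.23 in large colonies, against 7.85, 7.77 and 7.69 in small ones, 2.98-fold higher (1.57 ± 0.081, adjusted p = 1.09e-10). Dusp5 had 7.73, 7.89 and 7.72 in large colonies, against 7.15, 7.21 and 7.14 in small ones (0.61 ± 0.064, adjusted p = 8.86e-07). Dusp6 (0.29, adjusted p = 0.00728) and Spry1 (0.33, adjusted p = 0.00253) were higher in large colonies too. All 3 phosphatase genes were thus higher in large colonies.

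Spry2 stood on the other side, with 8.08, 7.99 and 7.84 in large colonies, against 8.90, 8.82 and 8.81 in small ones (-0.87 ± 0.077, adjusted p = 1.06e-07). Etv4 had 5.28, 5.48 and 5.31 in large colonies, against 5.86, 5.95 and 5.79 in small ones (-0.51 ± 0.076, adjusted p = 4.06e-05). Etv5 was lower by a smaller amount (-0.21, adjusted p = 0.0395), a call lost without large replicate 2 (adjusted p = 0.0602) or 3 (0.218), without small replicate 1 (0.124) or 2 (0.0866) and when only the arrays compared were fitted (0.0831). Its second probe set was lower by 0.33 (-0.33, adjusted p = 0.011 over all probe sets). Spry4 (-0.15, adjusted p = 0.0765), Spred1 (-0.14, adjusted p = 0.0957) and Spred2 (-0.04, adjusted p = 0.636) did not pass. Genes called were 7 of 10, 4 higher and 3 lower in large colonies, beside 36.2% of all genes, 18.2% higher and 18.0% lower. The groups did not overlap for 9 of 10, beside 44.9%, and 1 of 10 differed 2-fold, beside 3.93%.

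Related genes also set the untreated colonies apart. Over all genes 36.2% were called between them, 18.2% higher and 18.0% lower in large colonies. Of 16 ligands 10 were higher and 2 lower in large colonies, among them Fgf7 (10.77 in large, 4.32 in small colonies, close to the lower quartile of the arrays, 4.06 to 4.23), Igf2 (9.05 and 5.59) and Fgf2 (9.95 and 7.46). Of 10 other phosphatases 7 were higher and 1 lower, led by Dusp10 (0.92). ERK-induced genes were lower in 10 and higher in 1 of 18 cases (median -0.20), such as Fosl1 (7.54 and 9.01), Etv1, the third PEA3-type ETS factor (4.97 and 6.87), and Myc (8.42 and 9.42). Proliferation markers differed as well, with all 6 lower in large colonies (median -1.45). Mki67 had 5.37, 5.43 and 5.43 in large colonies, against the same unexplained 6.71 in each small-colony array. The part of these markers was not tested.

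Treated small colonies were set against untreated large ones at both passages. At passage 5 Dusp4 was lower in treated small colonies (-1.47 ± 0.081, adjusted p = 3.1e-10), as were Dusp6 (-0.54), Spry1 (-0.43) and Dusp5 (-0.22), and Spry2 (0.60 ± 0.077) and Etv4 (0.28) were higher. Spry4 (-0.07, adjusted p = 0.43), Spred1 (-0.01, adjusted p = 0.944), Spred2 (-0.07, adjusted p = 0.399) and Etv5 (-0.01, adjusted p = 0.948) did not pass. The call of Dusp5 (adjusted p = 0.0112) was lost without large replicate 2 (0.0686) or treated replicate 1 (0.0568). Genes called were 6 of 10, 2 higher and 4 lower, beside 35.7% of all genes, 14.8% higher and 20.9% lower. Of the set 1 differed 2-fold, beside 3.64%, and 6 had groups that did not overlap, beside 43.9%. Among 18 ERK-induced genes 16 were called higher and 1 lower, with Fosl1 at 9.23 in treated small and 7.54 in large colonies. At passage 15 limma called 8 of 10 genes lower in treated small colonies and none higher, also at an unadjusted p under 0.05, beside 53.4% of all genes, 29.2% higher and 24.2% lower. Among the 18 ERK-induced genes 4 were called higher and 11 lower at that passage.

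Of the genes lower at passage 15, Dusp6 had 7.59, 7.50 and 7.56 in treated small colonies, against 9.14, 9.16 and 9.15 in large ones, 3.02-fold lower (-1.59 ± 0.078, adjusted p = 4.07e-11). Spry1 (-1.35 ± 0.077) and Spry4 (-1.16 ± 0.064) followed, then Etv5 (-0.53), Spred1 (-0.50), Etv4 (-0.49), Dusp4 (-0.45) and Spred2 (-0.23). These were 3 genes of at least 2-fold in 10, beside 4.64% of all genes, and 9 of 10 had groups that did not overlap, beside 60.7%. With cyclic loess Spred2 was not called (adjusted p = 0.0732) and Dusp5 was called higher (0.20, adjusted p = 0.0172). Spry2 (-0.09, adjusted p = 0.325) did not pass. Receptor levels differed in the same arrays, with Pdgfra at 6.63 ± 0.028 in treated small and 8.84 ± 0.15 in large colonies (SD, n = 3) and Egfr at 8.34 and 10.30. The ligand genes Igf2 (5.48 and 11.07), Fgf2 (6.21 and 10.09) and Fgf10 (4.69 and 8.13) were far apart too. Mki67 averaged 8.97 and 8.18, and the part of these differences was not tested.

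**Figure D4:**
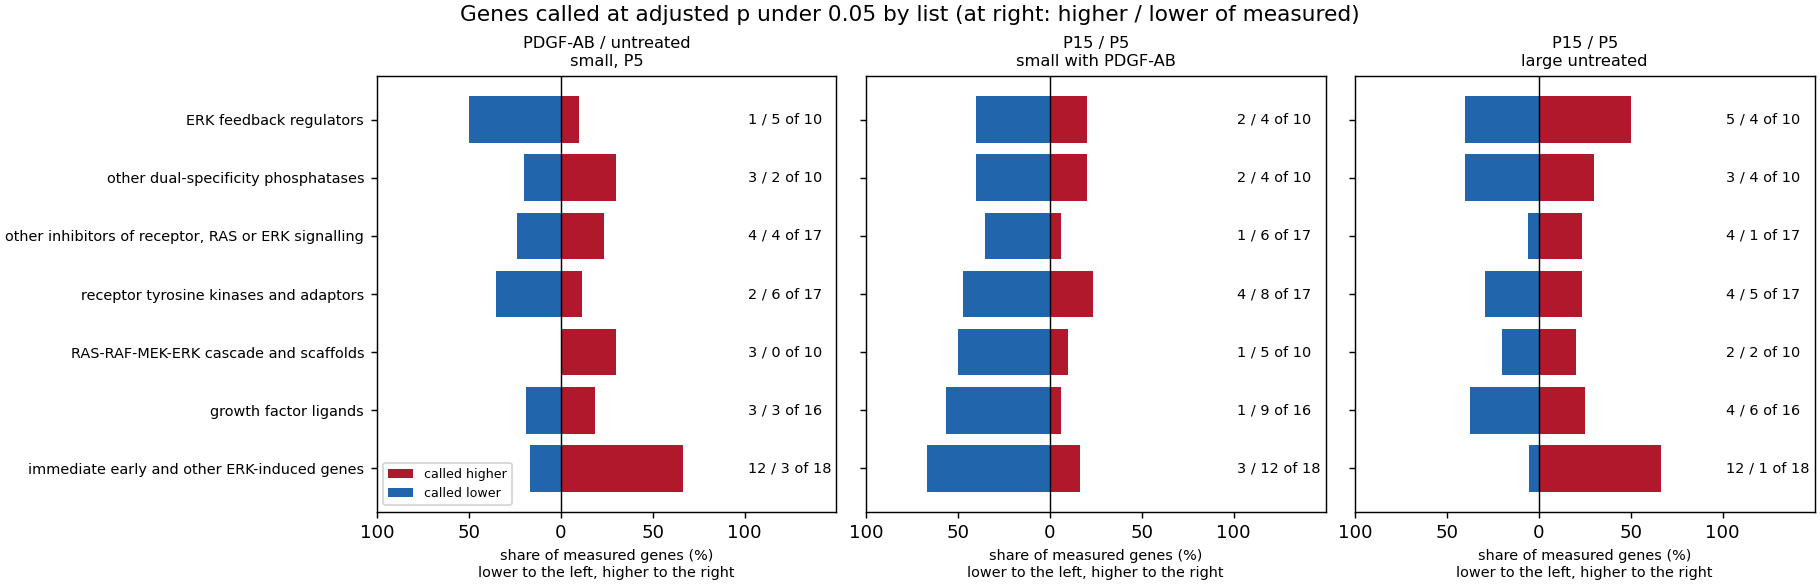
Share of the measured genes of each list that limma called higher (right) or lower (left) in 3 comparisons, with the counts beside each bar. ERK-induced genes were called higher in 12 of 18 cases with PDGF-AB and with passage in large colonies. They were called lower in 12 of 18 with passage in treated small colonies. Over all genes 10.7% were called higher with PDGF-AB and 17.4% with passage in large colonies, and 21.4% lower with passage in treated small colonies. The ERK feedback regulators split in all 3 comparisons.

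The order of the groups differed from gene to gene. Spry1 and Spry4 were lowest in treated small colonies at passage 15, by 1.35 and 1.16 below the next group, and Spry2 was lowest there too, though with arrays that overlapped those of late large colonies. Dusp6 ran upward through treated small colonies at passage 15, treated and then untreated small colonies at passage 5 (overlapping), and large colonies at passage 5 and passage 15. Spred1, Spred2, Etv4 and Etv5 were all highest in large colonies at passage 15, where only the Etv5 arrays overlapped those of the next group, untreated small colonies. Dusp4 ran upward through untreated and treated small colonies at passage 5 (overlapping), treated small colonies at passage 15, and large colonies at passage 15 and passage 5. Dusp5 was lowest in untreated small colonies, and its 3 highest groups, both large ones and treated small colonies at passage 15, overlapped in neighbouring pairs. The spans of the group means were 1.83 for Spry1, 1.69 for Spry4, 1.59 for Dusp6, 1.57 for Dusp4 and 1.17 for Spry2, against 0.28 for Spred2.

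Among 2560 genes whose group means spanned at least 1, those most like each gene by Pearson's r over the 15 arrays were as follows, as a description of 5 groups of 3 arrays. For Dusp6 they were Tedc2 (0.988), Sema3c (0.986) and Nfyb (0.983). For Spry1 they were Jam2 (0.991), Nkd2 (0.988) and Snx9 (0.988), and for Spry4 they were Stox2 (0.985), Tmc6 (0.982) and Gnai1 (0.981). For Spry2 the closest were Sc5d (0.984), Ndrg2 (0.979) and Bnip3 (0.979), and for Dusp4 Chn1 (0.984), Igfbp3 (0.983) and Sox11 (0.982). Dusp5 came closest to Nqo1 (0.927), Nr2f2 (0.925) and Tspan5 (0.904), Etv4 to Dcbld1 (0.959), Cda (0.951) and Tinf2 (0.951), and Etv5 to Elmo1 (0.917), Trib1 (0.916) and Maged2 (0.907). Spred1 was nearest to Lama1 (0.959), Pgap1 (0.956) and Cd34 (0.946), and Spred2 to Scd1 (0.923), Akr1c18 (0.921) and Cep85l (0.920). The 10 genes did not share a nearest gene.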

How the data were processed

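RNA of 15 samples was labelled with an Affymetrix WT kit, per the labels' protocols, and measured on 1 array a sample. The deposited values are the authors' log2 intensities, a scale read from their range, and RMA and limma are the tools listed, without versions, per the submitters' processing notes. Background settings are not given in the sources used here. For arrays, their number limits the precision, 3 in each of 5 groups.

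Of 28853 probe sets 21789 named 1 gene, and the one with the highest mean was kept for each of 19938 genes. Symbols were updated by gene identifier to GRCm38.p6. A mean per group was fitted over all 15 arrays with limma 3.58.1 in R 4.3.3 (10 residual and 5.8 prior degrees of freedom), with moderated 2-sided tests in 7 comparisons. All 10 genes are named in every comparison. From each of 6 lists of related genes, up to 4 with the smallest adjusted p are named, with the receptors and Mki67. For likeness the 3 highest correlations were taken. Xist and the Y-linked genes were added after values were seen. Members and lists were chosen with earlier results of these data known. The comparisons share groups, other than the passage changes of the 2 lines.

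Replicate numbers were not taken to pair the arrays, as no comparison had a correlation over 0.1 in all 3 pairs of same-numbered arrays. For passage in large colonies the values were 0.208, 0.0984 and 0.202, so the cut cannot exclude pairing there. The fit was also run on simulated data, whose settings and outcome are not given here. Alternatives were median centring, cyclic loess, leaving out genes below the median level, the mean over probe sets, all probe sets, the compared arrays alone, trended and robust variance, array weights, a replicate block and each array left out.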

Additional observations from a re-analysis of the deposited data

Results flagged for a closer look

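The passage change differed between treated small and untreated large colonies in 9 of the 10 genes, by the test of the difference itself (limma). The differences, treated small minus large, were 1.02 for Dusp4, 0.34 for Dusp5, -1.05 for Dusp6, -0.92 for Spry1, -0.69 for Spry2, -1.09 for Spry4, -0.50 for Spred1, -0.77 for Etv4 and -0.52 for Etv5. For Dusp4 and Dusp6 the lines moved in opposite directions with a call in each line. The call of Dusp6 in treated small colonies was lost without 4 of the 6 arrays compared, each left out in turn. Groups of 3 arrays are too small for a check of single outlying arrays.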

How the results depend on the processing

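Of 70 changes (10 genes in 7 comparisons) 55 kept their side of the threshold under all alternatives run, and no called change reversed. Over 1173 recomputed values 41 lost a call and 6 gained one, 23 of these 47 with PDGF-AB at passage 5. There the genes of the set called were 6, against 2 with cyclic loess between arrays and between 1 and 6 with each array left out. The genes called between treated small and large colonies at passage 15 were 10637, against 6829 when only genes above the median level were kept, where fewer genes were tested. Etv4 was below that level and has no value in that setting. With the replicate block the genes of the set called with PDGF-AB were 6 of 10, and the block changed none of the 70 calls. No array was left out of the analysis. Levels near the background of the arrays, as in Etv4, limit folds.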
